A study of Mus musculus with 4 samples.

Results

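The genes of mitosis and the spindle checkpoint were followed in mouse embryonic stem cells after knockdown of Kdm5b, a demethylase of lysine 4 on histone H3. The 35 genes were taken by symbol from a table of 23697 loci. Each had 1 locus there, and all 35 passed the filter of a mean of at least 1 FPKM, as did 11784 loci in all. FPKM counts sequenced fragments relative to transcript length and library size, so levels of different genes can be set side by side. The cells were of the WW6 line, of mixed strain (mostly 129/Sv, about 75%, with about 20% C57/B6J and about 5% SJL), grown without feeder cells in serum and leukemia inhibitory factor. The treated group received small interfering RNA against Kdm5b and the control group small interfering RNA against GFP, which the sample labels call a mock control construct. Both groups were thus transfected, 24 hours after seeding, and the time from transfection to harvest is not given in the sources used here. Each group holds 2 libraries, named A and B, from a transient transfection of whole dishes, so any untransfected cells are averaged in. Whether A and B came from separate cultures is not stated in the labels; the p-values therefore reflect no more than the spread among these 4 libraries, possibly technical. Values of a group are given in the order A, B.

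A cell enters mitosis when cyclin B and the kinase Cdk1 become active, after which the chromosomes condense and a spindle of microtubules forms. Kinetochores, built on centromeres, attach each chromosome to the spindle. As long as an attachment is missing, the spindle checkpoint holds back Cdc20, the activator of the anaphase-promoting complex; once released, that complex marks cyclin B and securin for destruction and the sister chromatids part. Embryonic stem cells divide fast with short gap phases. Many of these genes are transcribed mainly late in the cycle, from promoters that carry a CHR element (cell cycle genes homology region), bound by the MuvB complex with B-Myb and FoxM1, and CCAAT boxes, bound by NF-Y.

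The letters of these elements were looked for in the members. They were not a criterion of choice. The members are known mitosis genes, however, so a high share could be foreseen and is no independent result. RefSeq promoters (GRCm38.p6, 250 bases before to 50 after the start, the first start listed for a gene) were at hand for 29 of the 35 members. CHR was searched as TTTGAA or TTCGAA and the NF-Y box as CCAAT, each on both strands, and in the members 1 CHR match overlapped a CCAAT match. CHR letters were present in 23 of 29 members (79.3%), against 19.4% of 27025 genes and 13.6% of the 9240 tested genes with a promoter. CCAAT letters were present in 22 members (75.9%), against 37.9% of all genes and 39.7% of tested genes. Both were present in 20 members (69.0%), against 7.70% and 6.13%. In 21 members a CHR match began within 60 bases of the start. A match is a description of letters and not a bound site. The stretches below are the 120 bases upstream of the start of 6 members in which CHR letters lie upstream, taken from several roles, with CHR and CCAAT letters of either strand in capitals.
Cdk1 (chr10:69352913-69353032, minus strand): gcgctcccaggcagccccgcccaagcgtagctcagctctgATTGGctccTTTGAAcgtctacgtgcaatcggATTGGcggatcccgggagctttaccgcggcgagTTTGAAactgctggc
Cdc20 (chr4:118437344-118437463, minus strand): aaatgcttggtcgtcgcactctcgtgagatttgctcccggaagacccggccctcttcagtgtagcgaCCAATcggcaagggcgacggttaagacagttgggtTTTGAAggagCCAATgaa
Espl1 (chr15:102296173-102296292, plus strand): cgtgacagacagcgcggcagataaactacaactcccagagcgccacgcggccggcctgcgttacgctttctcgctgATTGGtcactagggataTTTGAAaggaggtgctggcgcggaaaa
Kif11 (chr19:37376262-37376381, plus strand): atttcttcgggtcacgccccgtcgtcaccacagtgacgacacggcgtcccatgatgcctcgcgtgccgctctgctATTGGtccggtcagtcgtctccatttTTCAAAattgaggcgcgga
Top2a (chr11:99024190-99024309, minus strand): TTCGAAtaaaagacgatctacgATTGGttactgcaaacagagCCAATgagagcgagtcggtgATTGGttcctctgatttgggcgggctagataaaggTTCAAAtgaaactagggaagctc
Mki67 (chr7:135716380-135716499, minus strand): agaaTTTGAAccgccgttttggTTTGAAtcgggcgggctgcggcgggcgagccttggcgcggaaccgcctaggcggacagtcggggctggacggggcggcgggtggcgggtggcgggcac
In Cdc20, Espl1, Kif11 and Top2a the CHR letters closest to the start lie 18, 27, 19 and 23 bases before it, each downstream of a CCAAT match. Cdk1 has CHR letters both 71 and 15 bases upstream. The 4 members with neither set of letters in the window are Birc5, Nuf2, Mad2l1 and Pttg1, and Ccnb1 and Cenpe have CCAAT letters alone. The stretches of Mad2l1 and Pttg1 are shown next because these genes have the lowest and the highest fold change among the members below, a choice made after their values were seen.
Mad2l1 (chr6:66535101-66535220, plus strand): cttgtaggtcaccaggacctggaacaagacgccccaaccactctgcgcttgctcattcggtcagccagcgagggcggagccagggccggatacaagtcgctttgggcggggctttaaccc
Pttg1 (chr11:43425982-43426101, minus strand): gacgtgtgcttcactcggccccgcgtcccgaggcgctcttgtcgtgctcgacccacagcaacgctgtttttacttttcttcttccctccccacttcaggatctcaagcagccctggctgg

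**Figure D1:**
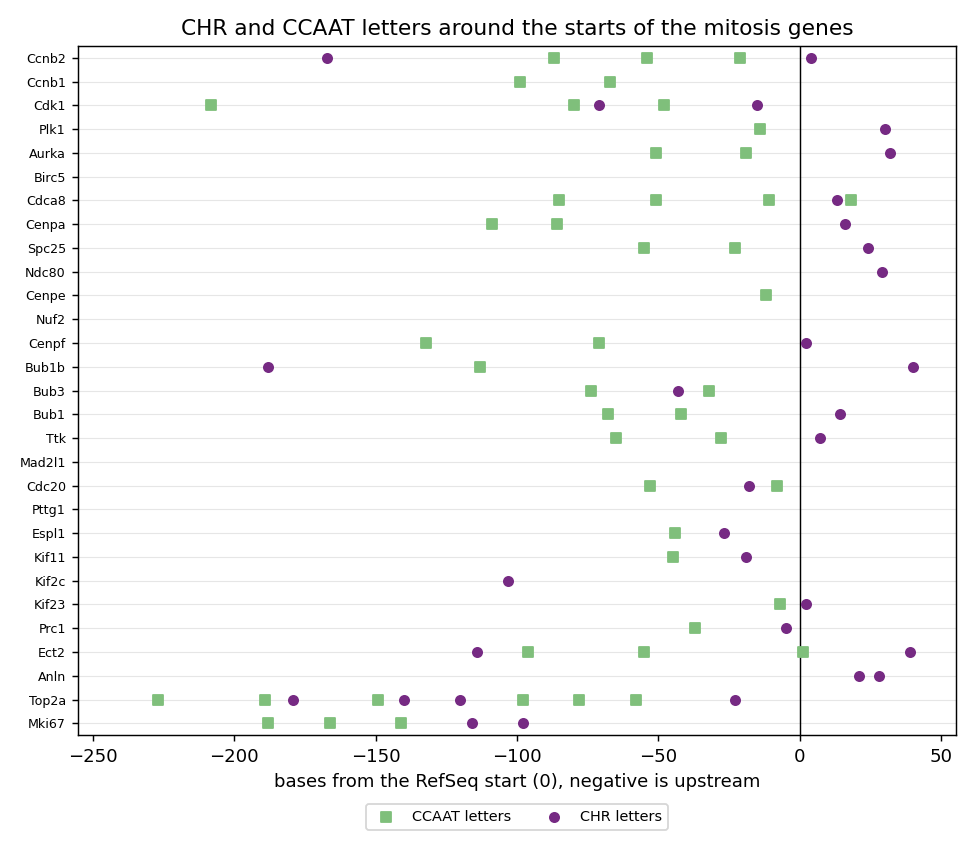
Position of the first base of each CHR match (circles) and CCAAT match (squares), on either strand, in bases from the RefSeq start, for the 29 members with a promoter in the table. The circles gather near the start, and the rows of Birc5, Nuf2, Mad2l1 and Pttg1 are empty.

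Some facts of the whole data set bear on what follows. Kdm5b itself stood at 99.7 and 145 FPKM in control cells and at 22.7 and 31.1 FPKM in knockdown cells, a knockdown mean of 21.98% of the control mean (log2 fold change -2.14 ± 0.30, SE, n = 2 per group). Even so it missed the threshold of 0.05 (limma adjusted p = 0.562). The summed level of 6 stem cell markers lay between 1918 and 2714 FPKM, with Pou5f1 between 766.6 and 1259 FPKM. The sum of 6 fibroblast markers was 9.25 and 2.92 FPKM in the controls and 0.26 and 1.55 FPKM in the knockdown libraries, and that of 6 endoderm markers 4.31 and 4.45 against 2.32 and 1.65 FPKM, with Ttr at 0 in all 4. Both sums were lower in knockdown, at a level far under that of the stem cell markers, and their part in the results was not tested. Knockdown A stands apart from the rest, with an estimated 78.2% of the depth of control B and 11953 loci listed at 0, against 8131 to 8609 in the other libraries.

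The members are abundant in these cells and stood at similar levels in all 4 libraries. Their mean level ran from 16.4 FPKM for Cdc25c to 253 FPKM for Top2a, with a median at percentile 88.9 of the tested loci. The highest after Top2a, which untangles sister DNA, were Cdc20 at 235 FPKM, Pttg1 (securin) at 197 FPKM, Birc5 (survivin) at 143 FPKM and Ccnb2 at 140 FPKM. The lowest after Cdc25c were Espl1 (separase) at 18.5 FPKM and the kinetochore genes Cenpf at 29.1, Nuf2 at 32.7 and Cenpe at 34.2 FPKM. For the 26 members with a known transcript length, a value stood for an estimated 75.2 to 6540 fragments (median 711), so counting error alone is small for most. In 29 of 35 members (82.9%) the highest of the 4 values was under 1.5 times the lowest, against 29.1% of all tested loci and 47.0% of the 4586 tested loci with a mean in the members' range. The loci in that range, here and below, are not matched to the members in level. Their median level was 36.2 FPKM, against 69.5 FPKM for the members. Kif2c, a microtubule-depolymerizing kinesin, was steadiest, with a highest value 1.07 times its lowest. Only Mad2l1 exceeded 2-fold, at 2.21 times.

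**Figure D2:**
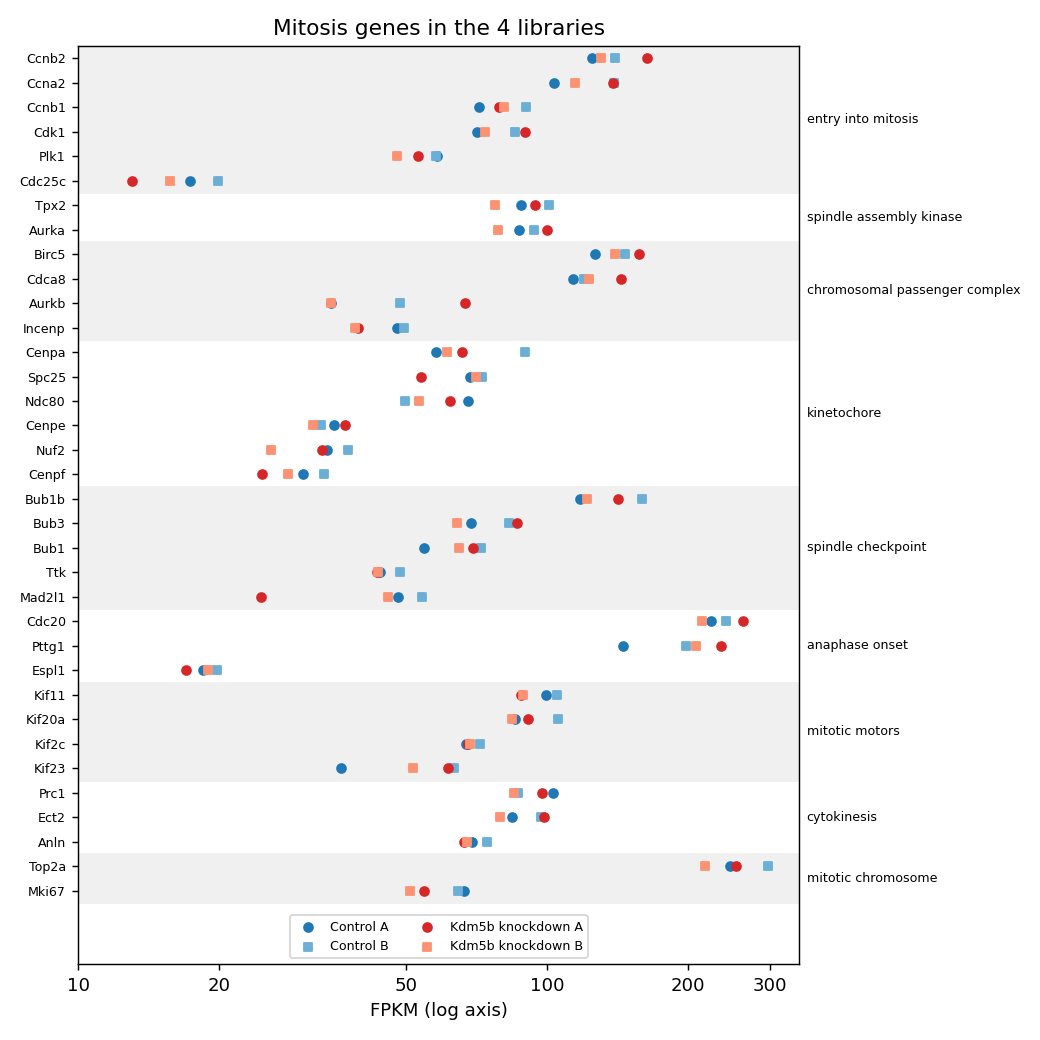
Level of each member in FPKM on a log axis, 1 point per library, grouped by role and ordered by mean level within a role. The 4 points lie close together for most genes; Mad2l1 in knockdown A (24.6 FPKM), Aurkb in knockdown A (66.8 FPKM) and Kif23 in control A (36.4 FPKM) sit apart from the other 3.

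Knockdown was compared with control to ask whether loss of Kdm5b changed these genes. None of the 35 passed limma at an adjusted p under 0.05, where 0.0339% of all tested loci did (4, each lower in knockdown), and none had an unadjusted p under 0.05, where 2.46% of tested loci did. The limma adjusted p of the members lay between 0.918 and 0.997. Fold changes below are on the log2(FPKM + 1) scale, with a limma standard error and n = 2 per group. They ran from -0.59 for Mad2l1 to 0.38 for Pttg1, with a median of -0.05. Medians over all tested loci and over those in the members' range of level were -0.03 and 0.03. The SD of the fold changes across members was 0.19, against 0.65 over all tested loci and 0.57 over the loci in that range. The 95% interval lay wholly within 1 log2 unit of 0 for 31 of 35 members, against 32.8% of tested loci and 60.6% of those in the members' range, and the exceptions were Cdc25c, Mad2l1, Aurkb and Kif23. A change of 2-fold or more thus lies outside the interval for those 31, while the whole interval lay within 1.5-fold for 3 (1.25% of tested loci). With 2 libraries against 2, an exact permutation test of a single gene could not go below p = 0.333.

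**Figure D3:**
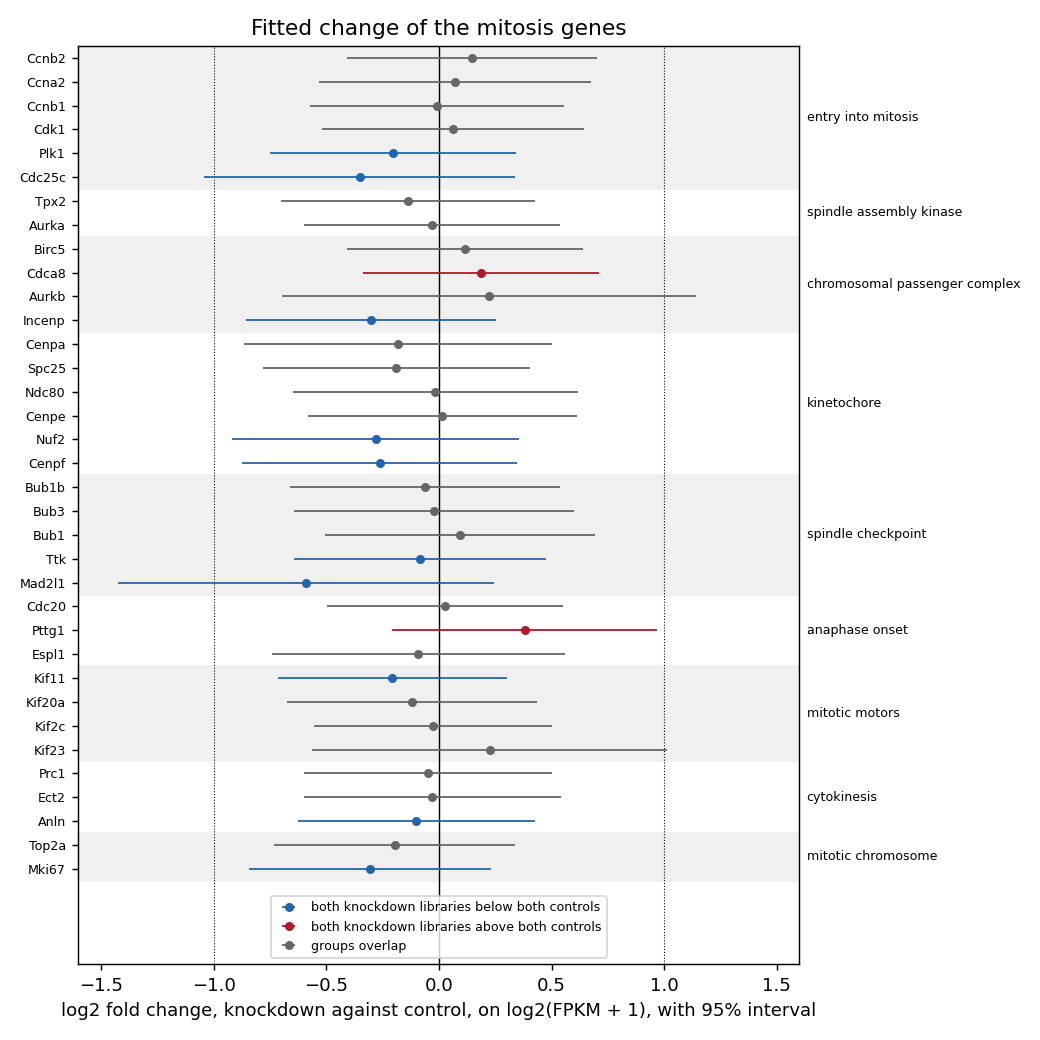
Log2 fold change of each member, knockdown against control, with its 95% limma interval; dotted lines mark 1 log2 unit either side of 0. Every interval includes 0, and the 10 members in blue and 2 in red have both knockdown libraries outside the control range.

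Of the 35 members, 24 had a negative and 11 a positive fold change. Negative were 52.9% of tested loci and 45.8% of those in the members' range of level. For 12 of 35 members both knockdown libraries lay outside the control range. This held for 31.9% of tested loci and 30.2% of those in the members' range of level. Both knockdown libraries lay below both controls for 10 members, beside 16.9% of all tested loci and 13.5% of those in the members' range of level. They lay above both controls for 2 members, beside 15.0% and 16.7%. These tallies moved with single libraries. The negative count was 28 without control A and 28 without knockdown A, but 17 without control B and 17 without knockdown B. Without knockdown A, the remaining knockdown library lay below both controls for 20 members and above both for 2 (29.5% and 29.1% of loci); without knockdown B the counts were 12 and 11 (42.3% and 36.8%). Without control A they were 22 and 3 (30.4% and 27.1%), and without control B 12 and 12 (35.6% and 32.3%). The surplus of members on the lower side was thus gone without control B or without knockdown B. In bulk RNA such as this, fewer cells in mitosis and less RNA per cell cannot be told apart.

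The libraries differed for these genes about as much within a group as between groups. The median size of a member's log2 difference was 0.19 for control A against B and 0.22 for knockdown A against B, and it was 0.13 to 0.24 for the 4 pairs of a knockdown and a control library. Control B exceeded control A in 30 of 35 members, with a median difference of 0.16 on the log2(FPKM + 1) scale, while all tested loci had a median of -0.02 and those in the members' range of level had 0.10. Knockdown A exceeded knockdown B in 25 of 35. Set against the control of the same letter, knockdown A was higher in 21 of 35 members (median 0.09, and 0.099 over the loci in that range), and knockdown B was higher in 3 of 35 (median -0.24, where all tested loci had 0.0014 and those in that range -0.024). Control B held the highest of the 4 values for 20 members, knockdown B for 0. The members' summed level was 2817 and 3250 FPKM in control cells, and 3175 and 2802 FPKM in knockdown cells. In both groups, then, 1 library lay high and 1 low, and the groups overlapped.

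**Figure D4:**
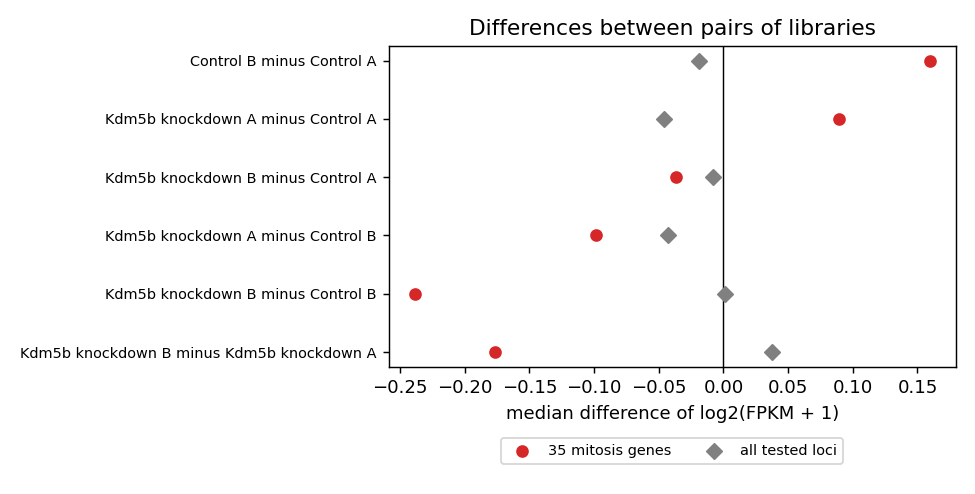
Median difference of log2(FPKM + 1) between each pair of libraries, over the 35 members (circles) and all tested loci (diamonds). The members' medians run from -0.24 (knockdown B against control B) to 0.16 (control B against control A), while those of all loci stay between -0.05 and 0.04.

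Among genes of entry into mitosis, the cyclins and their kinase overlapped between groups. Cdk1, the mitotic kinase, stood at 71.0 and 85.6 FPKM in control cells and at 89.9 and 73.9 FPKM in knockdown cells. Its main partner Ccnb1 (cyclin B1) stood at 71.6 and 90.4 against 79.0 and 81.1 FPKM, with a fold change of -0.01 ± 0.23 (SE). The knockdown values of Ccnb1 lay inside the control range, and the interval of its fold change ran from -0.57 to 0.56. Ccnb2, the second cyclin B, was more abundant than Ccnb1 in every library, at 125 and 140 FPKM in control cells and 164 and 130 FPKM in knockdown cells. Ccna2 (cyclin A2), needed for S phase and for mitotic entry, stood at 104 and 139 against 138 and 115 FPKM; its locus overlaps Exosc9. The knockdown values of Ccna2 lay inside the control range, and those of Ccnb2 on both sides of control B. The regulators Cdc25c and Plk1 instead lay lower in both knockdown libraries. Cdc25c, the phosphatase that activates Cdk1, stood at 17.3 and 19.8 FPKM in control cells and 13.02 and 15.7 FPKM in knockdown cells, a fold change of -0.35 ± 0.28. Plk1, polo-like kinase, stood at 58.2 and 57.9 against 53.0 and 47.8 FPKM, a fold change of -0.20 ± 0.22. Neither gap exceeded the spread that limma allowed for.

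The spindle kinase Aurka, at 87.0 and 94.0 FPKM in control cells and 99.8 and 78.5 FPKM in knockdown cells, overlapped between groups, as did its activator Tpx2, whose fold change was -0.14 ± 0.23. In the chromosomal passenger complex, which corrects faulty attachments, the 4 subunits did not share a direction. Incenp, the scaffold, stood at 47.8 and 49.5 FPKM in control cells and at 39.6 and 39.0 FPKM in knockdown cells. The SD of Incenp was 1.24 FPKM in control and 0.43 FPKM in knockdown cells, and its fold change of -0.30 ± 0.23 stayed between -0.33 and -0.28 whichever library was left out. Cdca8 (borealin), which helps to target the complex to centromeres, stood at 114 and 120 against 144 and 123 FPKM, higher in both knockdown libraries but in knockdown B by little. Birc5, the third targeting subunit, overlapped at 127 and 147 against 157 and 139 FPKM. The kinase Aurkb stood at 34.6 and 48.6 FPKM in control cells and at 66.8 and 34.5 FPKM in knockdown cells. Its highest value was that of knockdown A, with knockdown B level with control A, and its fold change of 0.22 turned to -0.24 without knockdown A. The ratio of Cdca8 to Incenp, a pair picked after the values were seen, was 2.38 and 2.42 in the controls and 3.64 and 3.15 in the knockdown libraries. Ratios of other pairs of members were computed too, and some of them overlapped between groups. In this complex the ratio of Birc5 to Incenp was also above both controls, at 2.66 and 2.97 against 3.97 and 3.58. That of Aurkb to Incenp overlapped, at 0.73 and 0.98 against 1.69 and 0.89. No test was made of these ratios.

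At the kinetochore 5 of 6 members had a negative fold change, with a median of -0.19. Cenpa, the histone H3 variant that marks centromeres, stood at 58.1 and 89.6 FPKM in control cells and 66.0 and 61.2 FPKM in knockdown cells, inside the control range. Cenpf, a large protein of the outer kinetochore, stood at 30.2 and 33.4 against 24.7 and 28.0 FPKM, a fold change of -0.26 ± 0.25. Nuf2, of the NDC80 complex that grips microtubules, stood at 34.0 and 37.7 against 33.2 and 25.8 FPKM. Both knockdown libraries lay below both controls for these last 2 genes, for Nuf2 by a narrow margin in knockdown A. Its partners among the members, Ndc80 and Spc25, overlapped between groups. Spc24, a further subunit from the outer kinetochore list and named for that reason, did not. Spc24 stood at 67.0 and 77.2 against 37.6 and 65.3 FPKM, below both controls. Its fold change of -0.53 ± 0.32 was -0.14 without knockdown A. Ndc80 had its highest and lowest values in the 2 controls, 67.8 and 49.9 FPKM, with 62.1 and 53.2 FPKM in knockdown cells. Spc25 stood at 68.5 and 72.5 against 53.8 and 70.6 FPKM, low in knockdown A only, and its fold change of -0.19 was 0.0031 without that library. Cenpe, a kinetochore kinesin, had a fold change of 0.01 ± 0.24.

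In the spindle checkpoint, Mad2l1 was the member with the lowest fold change. Mad2l1 (mm9 chromosome 6, 66485461 to 66490985) encodes Mad2, which binds and holds back Cdc20. Its level was 48.1 and 54.2 FPKM in control cells, 24.6 FPKM in knockdown A and 45.8 FPKM in knockdown B, a fold change of -0.59 ± 0.34 (95% interval -1.42 to 0.24). The low value belongs to knockdown A alone: without that library the fold change was -0.15, and without knockdown B it was -1.02. Knockdown A is also the library with the lowest estimated depth and the most loci at 0, and the part of either in this value was not tested. Ttk (Mps1), the kinase at the top of the checkpoint, stood at 44.0 and 48.6 FPKM in control cells and 43.5 and 43.6 FPKM in knockdown cells. Both knockdown values of Ttk were under the lower control by less than 1 FPKM. Bub1 and Bub1b (BubR1), a kinase and a Cdc20 inhibitor, overlapped between groups with fold changes of 0.10 ± 0.25 and -0.06 ± 0.25. Bub3, which carries both to the kinetochore, had a fold change of -0.02 ± 0.25.

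Among the genes of anaphase onset, Pttg1 had the highest fold change of the members. Pttg1 (mm9 chromosome 11, 43233749 to 43239750) encodes securin, the inhibitor of separase that the anaphase-promoting complex destroys. It stood at 145 and 198 FPKM in control cells and at 235 and 208 FPKM in knockdown cells. Knockdown B exceeded control B by a small margin, and the fold change of 0.38 ± 0.24 (95% interval -0.21 to 0.97) was 0.16 without control A, the lowest library. Separase itself, Espl1, overlapped at 18.5 and 19.8 against 17.0 and 18.9 FPKM. Cdc20 overlapped too, at 224 and 241 FPKM in control cells and 262 and 214 FPKM in knockdown cells, with a fold change of 0.03 ± 0.22; its locus overlaps Elovl1.

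Of the mitotic motors, Kif11 (Eg5), which pushes spindle poles apart, stood at 99.6 and 105 FPKM in control cells and at 88.1 and 89.0 FPKM in knockdown cells. Its groups did not overlap, and its fold change of -0.21 ± 0.21 lay between -0.25 and -0.17 whichever library was left out. Kif23, a part of the central spindle, stood at 36.4 and 63.5 against 61.4 and 51.8 FPKM, low in control A, and its fold change of 0.23 turned to -0.17 without that library. Kif2c and Kif20a overlapped, with fold changes of -0.03 ± 0.22 and -0.12 ± 0.23; the locus of Kif20a overlaps Brd8 and Cdc23. The cytokinesis genes lay near 0: Prc1, a microtubule bundler, at -0.05 ± 0.23 and Ect2, an activator of RhoA, at -0.03 ± 0.23. Anln (anillin), a scaffold of the contractile ring, stood at 69.3 and 74.6 FPKM in control cells and 66.5 and 67.6 FPKM in knockdown cells, below both controls at a fold change of -0.10 ± 0.22. The proliferation marker Mki67, which coats mitotic chromosomes, stood at 66.6 and 64.4 FPKM in control cells and at 54.5 and 51.1 FPKM in knockdown cells. Its groups did not overlap, and its fold change of -0.31 ± 0.22 lay between -0.35 and -0.26 over the libraries left out. Top2a overlapped at 246 and 296 against 254 and 218 FPKM. Every limma interval of these genes included 0, and that of Mki67 ran from -0.84 to 0.23.

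A further 10 lists of the pathway, 121 genes, all tested, gave 0 calls by limma at an adjusted p under 0.05 (0.0339% of loci) and 3 at an unadjusted p under 0.05 (2.46% of loci; Lin37, Ube2c and, named for this count, Cenpm), with a median fold change of -0.03. Both knockdown libraries lay below both controls for 28 of these genes (23.1%, beside 16.9% of all tested loci) and above for 17 (14.0%, beside 15.0%). The 11 factors of late cell cycle transcription had the lowest median in the fit as reported, -0.21. Lin37, a subunit of MuvB, stood at 13.3 and 9.87 FPKM in control cells and 0.76 and 4.13 FPKM in knockdown cells, a fold change of -2.06 ± 0.59 (limma adjusted p = 0.918). It was -2.83 without knockdown B, which leaves knockdown A alone, and -1.28 without knockdown A. The limma adjusted p of Lin37 was 0.868 or more over the alternatives that kept all 4 libraries. Lin9, another MuvB subunit, had the highest of this list, 0.27 ± 0.28. Foxm1 and Mybl2 (B-Myb), the factors that act with MuvB at CHR promoters and picked here with their values known, measured 18.7 and 10.8 against 8.85 and 8.45 FPKM and, for Mybl2, 149 and 103 against 86.7 and 96.1 FPKM. Both lay below the controls, each with control A far above control B. Of the 11 factors, 5 had a positive and 6 a negative fold change. The Foxm1 locus also carries Tex52, and that of Mybl2 overlaps Mir7003. The median of this list was -0.05 without knockdown A, -0.51 without knockdown B and -0.34 without control B. It was -0.089 with a filter at 5 FPKM and -0.095 with quantile normalization. In these settings the outer kinetochore list was lower, at -0.15 and -0.12.

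The other lists had medians between -0.15 and 0.14. Among regulators of Cdk1, the extremes were Cdc25a, a phosphatase that activates cyclin-dependent kinases, at -0.53 ± 0.28 and Cks2, a small Cdk partner, at 0.31 ± 0.45. Cks2 was high in knockdown A alone, at 78.4 FPKM, and without that library its fold change was -0.36, while that of Cdc25a was -0.27. In the anaphase-promoting complex and its partners they were Anapc10 at -0.64 ± 0.59 and Cdc26 at 0.72 ± 0.59, both subunits. Both values came from knockdown A, and without it they were 0.15 for Anapc10 and -0.11 for Cdc26. Ube2c, a ubiquitin-conjugating enzyme of the complex picked with its values known, measured 238 and 236 FPKM in control cells. In knockdown cells it measured 169 and 138 FPKM (fold change -0.63 ± 0.21, limma adjusted p = 0.918). The groups of Ube2c were well apart, and its unadjusted limma p was 0.0256, among the 2.46% of loci under 0.05. Another such enzyme of the list, Ube2s, named beside it, went the other way at a low level. It measured 2.30 and 3.23 against 5.76 and 4.48 FPKM (fold change 0.70 ± 0.43). Of the 17 genes of this list, 1 lay below both controls (16.9% of tested loci did) and 4 above (15.0%). Extremes of the checkpoint accessory list were Kntc1 at -0.55 ± 0.27 and Spdl1 at 0.50 ± 0.44, which both act in bringing dynein to kinetochores; without knockdown A, the value of Spdl1 was -0.12. For the outer kinetochore they were Mis12 at -0.59 ± 0.29 and Ska3 at 0.36 ± 0.25, and for the inner kinetochore Cenpq at -1.12 ± 0.79 and Cenpl at 0.61 ± 0.61. Cenpq stood at 31.5 and 26.7 FPKM in control cells, 4.63 FPKM in knockdown A and 32.8 FPKM in knockdown B, so its low value was that of 1 library, without which the fold change was 0.17. That of Cenpl was 0.0040 without control B and 0.15 without knockdown A.

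Condensin genes ranged from Ncapd2 at -0.31 ± 0.24 to Smc2 at 0.17 ± 0.23, and cohesin genes from Cdca5 (sororin) at -0.34 ± 0.34 to Rad21 at 0.37 ± 0.22. Cdca5 was at 0.036 without knockdown A. Rad21, the subunit that separase cuts, stood at 59.8 and 63.0 FPKM in control cells and 78.1 and 81.2 FPKM in knockdown cells, above both controls. Among further spindle proteins Nusap1 stood at -0.35 ± 0.22 and the kinesin Kifc1 at 0.46 ± 0.27, and among cytokinesis and centriole genes Stil at -0.65 ± 0.38 and Cep55 at 0.51 ± 0.24. The 16 S phase genes, which precede mitosis in the cycle, had a median of 0.02, and none was called or had an unadjusted limma p under 0.05; they ran from Cdt1, a licensing factor, at -0.64 ± 0.40 to Gins1 at 0.38 ± 0.26. Without knockdown A these were -0.12 and 0.15. Of the S phase genes 2 lay below both controls (12.5%, beside 16.9% of all tested loci) and 4 above (25.0%, beside 15.0%).

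**Figure D5:**
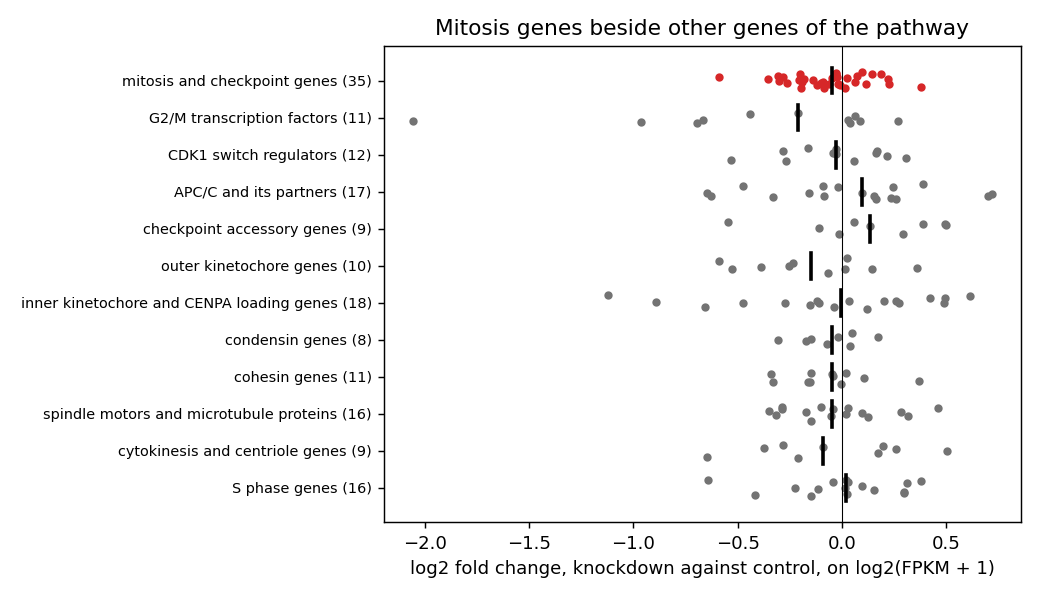
Log2 fold change of each tested gene, knockdown against control, by list, with the number of genes in brackets; black bars mark medians. The mitosis and checkpoint genes lie between -0.59 and 0.38, and Lin37 (-2.06) and Cenpq (-1.12) are the lowest points of the other lists.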

How the data were processed

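Strand-marked libraries of RNA depleted of ribosomal RNA, with cDNA sheared to 300 bp fragments per the labels' protocols, were made from 2 control and 2 Kdm5b knockdown samples. The authors deposited FPKM per locus and library; Cufflinks, Cuffdiff and the mm9 build are named per the submitters' processing notes, while versions, aligner and strandedness of the counting were not given in the sources used here. A gene and an overlapping partner may therefore share fragments (4 members overlap another locus). Loci were named from RefSeq identifiers with a GRCm38.p6 table (1 symbol for 23241 of 23697 loci). Fragments were estimated from the steps of low FPKM values. The depth was chosen to bring the largest share of these within 0.15 of a whole number, 77.0% to 81.1%. That share is thus no check of the estimates, and knockdown A gave 444 low values, against 1362 to 1573 in the other libraries. These estimates gave no counting interval.

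The loci averaging 1 FPKM or more were fitted on log2(FPKM + 1) values, which shrink the changes of weakly expressed genes, using limma 3.58.1 (group alone, eBayes with trend, two-sided, Benjamini-Hochberg over all 11784 loci) in R 4.3.3, after the script was tested on simulated data. Values are summarised with Python 3.11.15, pandas 2.3.3, numpy 2.4.6 and matplotlib 3.10.9. The members and lists were chosen with earlier results of these data known. Named are all members, and of each other list the genes with the highest and lowest fold change; exceptions are marked in the text. Alternatives were pseudocounts of 0.1 and 0.01, no filter, a filter at 5 FPKM, scaling to the upper quartile, quantile normalization, robust eBayes, eBayes without a trend, a block for the replicate letter, and the omission of each library. Counts of members outside the control range under other scalings and without each library, and the alternatives for named genes that are no members, were added after seeing the data.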

Additional observations from a re-analysis of the deposited data

How the results depend on the processing

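No member was called under any alternative run, and the lowest limma adjusted p of a member was 0.153, without knockdown B. The members' median fold change ranged from -0.15 to 0.02 over the libraries left out and from -0.07 to -0.05 over the other settings. The number of loci called, 4 as reported, was 1 with no filter on low values, 2 with eBayes without trend, 7 with the replicate block, and between 0 and 134 when 1 library was left out (0 without either control, 13 without knockdown A and 134 without knockdown B). The labels do not say whether the letters pair the libraries. The A minus B differences of the 2 groups had a correlation across loci of -0.07, and the block changed no call of a member. Members below both controls numbered 10 with upper-quartile scaling, 14 with quantile normalization and 12 to 22 with 1 library left out; members above numbered 2, 3 and 2 to 12. Fewer libraries make groups overlap less often by construction. Cenpe turned to -0.0018 with upper-quartile scaling and -0.0085 with quantile normalization. Leaving out 1 library turned the sign of 20 members, whose fold changes ranged from -0.20 to 0.14 for Aurka, -0.24 to 0.69 for Aurkb, -0.10 to 0.30 for Bub1, -0.28 to 0.15 for Bub1b, -0.23 to 0.19 for Bub3, -0.14 to 0.28 for Ccna2, -0.17 to 0.16 for Ccnb1, -0.017 to 0.31 for Ccnb2, -0.12 to 0.17 for Cdc20, -0.076 to 0.20 for Cdk1, -0.49 to 0.13 for Cenpa, -0.097 to 0.12 for Cenpe, -0.18 to 0.13 for Ect2, -0.27 to 0.033 for Kif20a, -0.17 to 0.62 for Kif23, -0.073 to 0.021 for Kif2c, -0.23 to 0.20 for Ndc80, -0.17 to 0.073 for Prc1, -0.38 to 0.0031 for Spc25 and -0.28 to 0.0024 for Tpx2. The other 15 kept their sign over these, 12 negative and 3 positive (Birc5, Cdca8 and Pttg1). Of 27 other named genes, Kdm5b included, the sign of 6 turned, each without knockdown A. The ranges were -1.44 to 0.15 for Anapc10, -0.11 to 1.54 for Cdc26 and -0.72 to 0.036 for Cdca5. They were -2.41 to 0.17 for Cenpq, -0.36 to 0.98 for Cks2 and -0.12 to 1.12 for Spdl1. Spc24 and Ube2s, not counted among these genes, kept their sign.

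With 2 libraries a group, the members' 95% interval reached a median of 0.57 log2 units either side of the estimate. For the 26 members with a known transcript length, the lowest estimate behind a value was 75.2 fragments. The part of depth in the width of the intervals was not tested. Antisense and overlapping transcription could not be separated.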
